A study of Mus musculus with 35 samples.

Results

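Immunity-related GTPases (IRGs) are large GTP-binding proteins that cells make in response to interferons. The 9 members described here, Irgm1, Irgm2, Igtp, Iigp1, Gm4951, Gm12250, Tgtp1, Tgtp2 and Ifi47, were chosen by gene symbol, and each was found as 1 of the 53379 gene rows of a count table of total RNA. The libraries came from female C57BL/6 mice bearing pancreatic tumors, which were grown in the pancreas from T110299 cells. T110299 is a single mouse pancreatic cancer line whose parent animal carried a floxed and an R172H allele of p53, with Cre expressed from Ptf1a in the pancreas. Every mouse in the series carried such a tumor, so the untreated spleens were spleens of tumor-bearing animals and not of healthy ones. Mice received poly(I:C)c, 50 µg of the double-stranded RNA mimic poly(I:C) complexed with the carrier jetPEI, into a vein on days 18 and 20 after tumor induction, while the treatment protocol in the labels names glucose as the control and the libraries without poly(I:C)c are labelled untreated. Polymorphonuclear myeloid-derived suppressor cells (PMN-MDSC, sorted as CD11b+ Ly6Clo Ly6G+) and monocytic ones (M-MDSC, CD11b+ Ly6Chi Ly6G-) were taken from spleen and from tumor, and pieces of bulk tumor were lysed whole from untreated mice only. This gave 9 groups of 4 libraries, except the treated splenic PMN-MDSC, with 3, and the treated tumor M-MDSC, of whose 4 libraries 1 held only 10 counts and was left out, also with 3.

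IRG proteins belong to a cell-autonomous defence against parasites and bacteria that live in vacuoles. Effector IRGs load onto the vacuole membrane and break it, whereas the regulatory IRGs of the Irgm group sit on the host's own membranes and keep the effectors in their inactive, GDP-bound state there. Transcription of the genes is switched on by type I and type II interferons, through STAT-containing factors that bind short promoter elements. Irgm1, Irgm2 and Igtp (also called Irgm3) are the regulators, and Iigp1 (Irga6), Tgtp1 and Tgtp2 (both Irgb6), Gm12250 (Irgb10) and Ifi47 (Irgd) are effectors. Gm4951 is a close relative of Iigp1.

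The promoters of the members carry the letters of these elements, and the stretches around them are shown because the members on this chromosome make up most of the family. Promoter windows of 250 bases before to 50 bases after the start site were taken from RefSeq (GRCm38.p6) and were found for 7 of the 9 members. Both strands were searched for GAAA, any pair of bases and GAAA again, the core letters of the interferon-stimulated response element, and for TTCNNNGAA, the letters of the gamma-activated site bound by STAT dimers, which reads the same on both strands. The first was present in the windows of 6 members and in 3.44% of all 32851 promoter windows. The second was present in those of 5 members and in 8.30% of all windows, and both were present in 5 members and in 0.454% of all windows. Ifi47 held neither in this window. Each stretch below is written on the strand of its gene, with the first motif in capitals, bases between its ends included (it reads TTTC, a pair of bases and TTTC where the match lay on the opposite strand).
Irgm1, chr11:48871435-48871464: ctagcctgtttcaaGAAATAGAAAccgaaa
Irgm2, chr11:58214899-58214928: catttccaggaactGAAACTGAAAgctgtt
Igtp, chr11:58199508-58199537: catttctaggaactGAAACTGAAAgctgtt
Tgtp1, chr11:48992308-48992337: catttccaggaatcGAAACTGAAAcctacc
Tgtp2, chr11:49064267-49064296: catttccaggaatcGAAACCGAAAcctact
Gm12250, chr11:58183746-58183775: ggtggcTTTCAGTTTCtatgcctagaaatt
Gm12250, chr11:58183791-58183820: atctgcTTTCAGTTTCatgttcttggcagg
In Irgm2, Igtp, Tgtp1 and Tgtp2 the 9 letters of the second motif began 11 bases before the first, so that both elements lay side by side in 1 arrangement. Counted from the start site, the first motif began at -64, -34, -77 and -70 and the second at -75, -45, -88 and -81 in these 4 promoters. Irgm1 had 2 matches to the first motif that overlapped each other, beginning 30 and 24 bases before its start, and no match to the second. In Gm12250 the 2 matches lay 91 and 46 bases before the start, with a match to the second motif between them at 61 bases. A match of letters describes the sequence and is no evidence that a factor was bound.

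The MDSC libraries held 793070 to 4357105 counts and the bulk tumor libraries 3771590 to 8886115, so that 3 counts corresponded to at most 3.78 CPM (counts scaled to a library total of 1000000), in the smallest library, an untreated tumor M-MDSC sample. Libraries were checked against marker genes of the sorted and of other cell types. The 7 neutrophil markers summed to 12359 to 20911 CPM in untreated splenic PMN-MDSC but to only 994 to 3179 CPM in untreated tumor PMN-MDSC, where the 5 monocyte markers (4145 to 8404 CPM) and the 5 macrophage markers (2820 to 3656 CPM) were above their levels in the splenic ones (662 to 2037 and 229 to 717 CPM). The tumor libraries labelled PMN-MDSC are therefore named by their label here. All 4 epithelial markers were detected in untreated tumor PMN-MDSC (89.5 to 617 CPM in sum, against 4014 to 5921 CPM in bulk tumor), while Krt8 and Krt19 were at 0 in untreated splenic PMN-MDSC. The part of these cells in the results on tumor libraries was not tested. In sorted as in bulk samples, a change in the share of cells that express a gene and a change in RNA per cell cannot be told apart.

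The genes of the family lie in clusters. In GRCm38, Irgm1 (chr11:48861968-48871683), Tgtp1 (chr11:48985327-48994172) and Tgtp2 (chr11:49057194-49064206) are on the minus strand and Ifi47 (chr11:49076587-49096974) is on the plus strand of 1 cluster. Gm12250 (chr11:58187739-58189012), Igtp (chr11:58199556-58207591) and Irgm2 (chr11:58199618-58222782) form another on the plus strand. Iigp1 and Gm4951 are neighbours on chromosome 18. The counted row of Gm12250 is a single exon of 1274 bases that GENCODE lists as a processed pseudogene, whereas RefSeq calls the gene protein-coding and places its start upstream. Tgtp1 and Tgtp2 are near-identical: 79.4% of the 50-base exon windows of Tgtp1 also occur in Tgtp2, and 85.8% of those of Tgtp2 occur in Tgtp1. Their division of reads is therefore uncertain, and their sum is given beside them. The exons of Igtp and Irgm2 share 162 bases on the same strand, and 11.8% and 7.77% of their windows occur in another gene. Ifi47 overlaps Olfr56 by 111 exon bases on the same strand. For the other members at most 4.62% of windows were shared.

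Levels per exon length (FPKM, which puts genes on a common scale) depend on the annotated exon length, 1274 bases for Gm12250 against 5810 for Irgm1. In treated splenic M-MDSC Gm12250 led with 83.4 ± 26.9 FPKM (SD, n = 4), followed by Ifi47 with 63.2 ± 22.5 and Igtp with 57.9 ± 12.3 FPKM, and Tgtp1 was lowest with 17.8 ± 6.46 FPKM. In treated splenic PMN-MDSC the mean level of Irgm2 (71.8 ± 21.3 FPKM, n = 3) was closest to that of Gm12250 (71.6 ± 19.1 FPKM). Gm12250 thus ranked at or near the top in treated splenic cells of both kinds, with differences from its neighbours that were within the SD. Its rank depends on the length of 1274 bases used for it. All values that follow are CPM, which are compared between groups for 1 gene and not between genes.

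**Figure D1:**
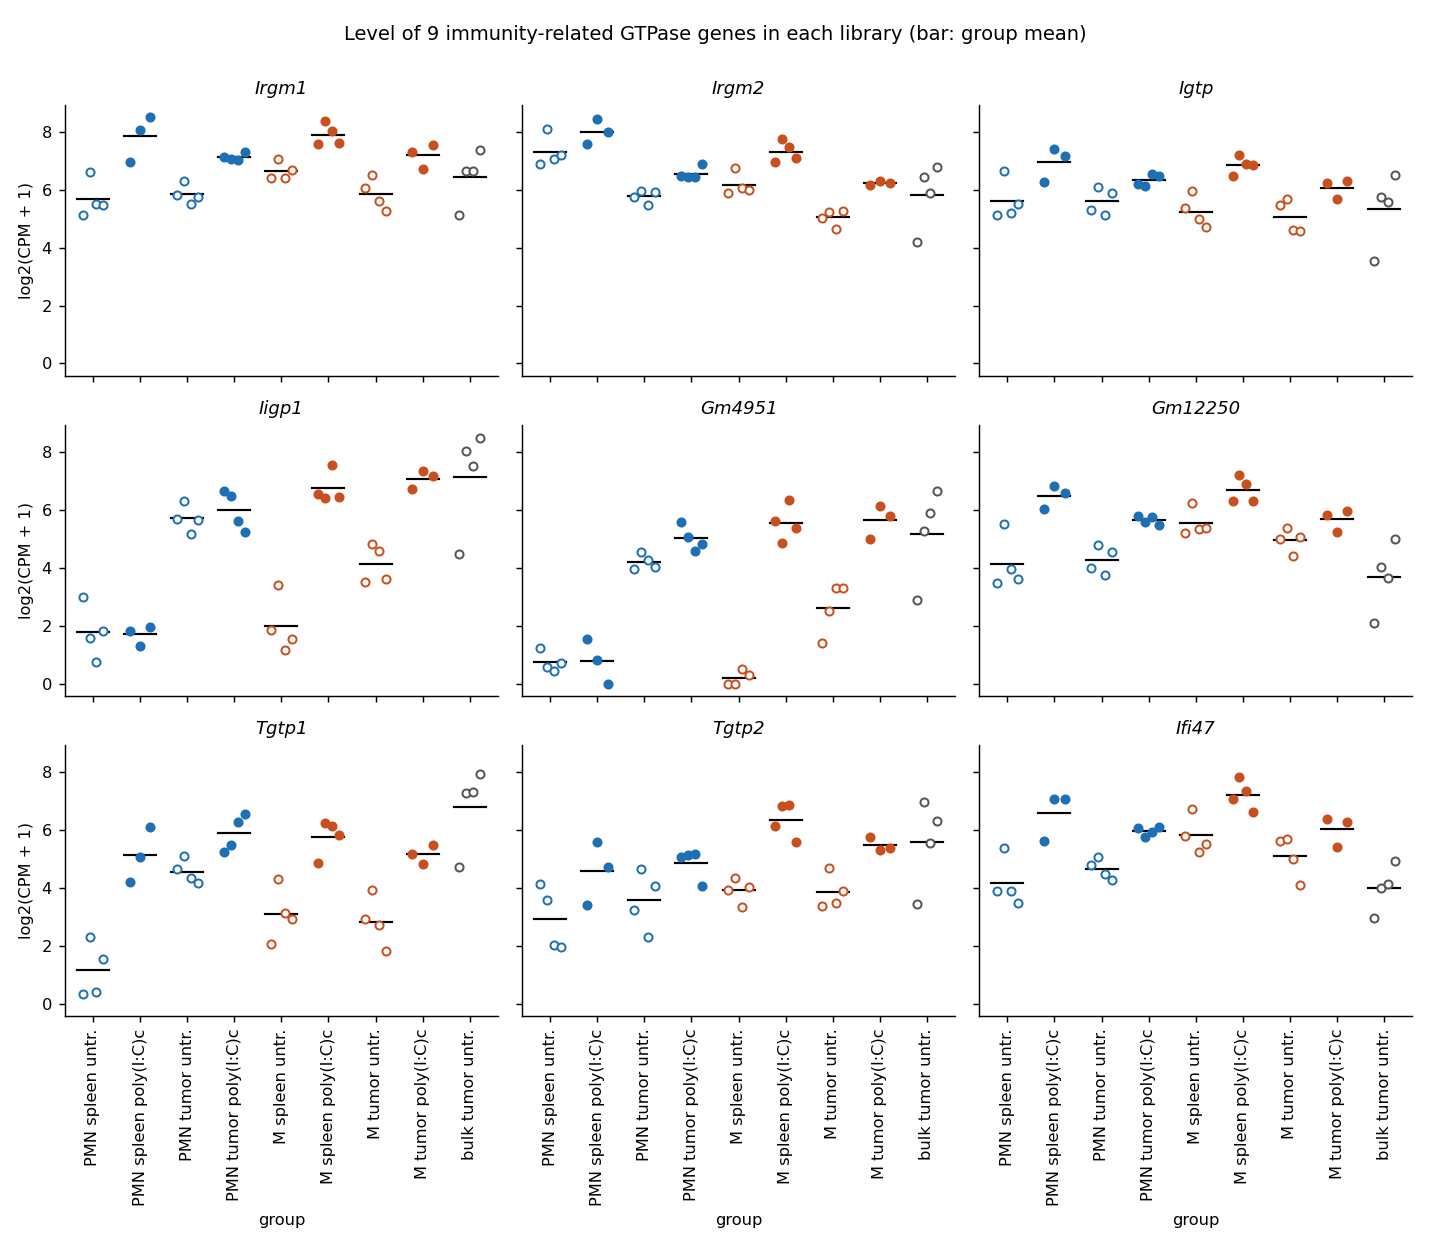
Levels of the 9 IRG genes in each of the 34 libraries, as log2(CPM + 1) on the vertical axis, by group on the horizontal axis; blue points are PMN-MDSC, orange points M-MDSC and grey points bulk tumor, open points are untreated and filled points poly(I:C)c, and the bar is the mean of the group. Most treated groups lie above their untreated groups, while Iigp1 and Gm4951 stay low in splenic PMN-MDSC with and without treatment.

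All 3 regulators were raised by poly(I:C)c in splenic M-MDSC, Irgm1 also in PMN-MDSC of both organs and Irgm2 also in tumor M-MDSC. Irgm1, which guards host membranes and the survival of interferon-exposed cells, was measured in untreated splenic PMN-MDSC at 34.5, 98.6, 44.4 and 43.7 CPM and in treated ones at 124, 267 and 367 CPM. Every treated library exceeded every untreated one, and the log2 fold change was 2.46 ± 0.49 (SE; edgeR adjusted p = 0.0174). In splenic M-MDSC it stood at 84.4, 133, 83.6 and 102 CPM without and at 194, 334, 261 and 195 CPM with poly(I:C)c, which gave 1.36 ± 0.23 on the log2 scale (adjusted p = 0.00311 by edgeR). In tumor PMN-MDSC it stood at 55.8, 77.5, 44.8 and 53.1 CPM untreated and at 140, 133, 131 and 158 CPM treated, which gave 1.26 ± 0.21 on the log2 scale (adjusted p = 0.00755 by edgeR). The groups did not overlap in either case. Nor did they in tumor M-MDSC (37.8 to 89.6 against 104 to 187 CPM), but there the log2 fold change of 1.21 ± 0.31 missed the threshold (edgeR adjusted p = 0.0663).

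Irgm2, a regulator found mainly on Golgi membranes, had the highest untreated level in splenic PMN-MDSC, at 118, 273, 135 and 147 CPM, and its treated values of 190, 347 and 257 CPM overlapped these. Its log2 fold change there was 0.93 ± 0.38 (edgeR adjusted p = 0.151). In splenic M-MDSC it rose from 58.5, 108, 65.8 and 63.3 to 125, 214, 179 and 137 CPM (log2 fold change 1.22 ± 0.25, edgeR adjusted p = 0.00792). In tumor M-MDSC it rose from 31.3, 37.1, 24.1 and 37.8 to 71.2, 78.0 and 75.5 CPM (log2 fold change 1.13 ± 0.22, edgeR adjusted p = 0.0307). Neither M-MDSC comparison showed an overlap. In tumor PMN-MDSC it ranged from 43.2 to 61.8 CPM untreated and from 86.2 to 118 CPM treated, and its log2 fold change, 0.78 ± 0.21, did not pass (edgeR adjusted p = 0.0721).

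Igtp, the regulator found mainly at the endoplasmic reticulum, passed the main edgeR test in splenic M-MDSC. DESeq2 also called it in splenic PMN-MDSC (adjusted p = 0.0125), and edgeR without the filter on low counts called it in all 4 treatment comparisons. In splenic M-MDSC Igtp stood at 40.1, 60.8, 30.6 and 25.2 CPM untreated and at 87.6, 148, 118 and 115 CPM treated, without overlap (log2 fold change 1.66 ± 0.29, edgeR adjusted p = 0.00379). In splenic PMN-MDSC 1 untreated library, at 101 CPM, was above the lowest treated one, at 76.8 CPM, and the log2 fold change was 1.55 ± 0.47 (edgeR adjusted p = 0.0688). In tumor its log2 fold changes were 0.68 ± 0.26 in PMN-MDSC and 0.86 ± 0.32 in M-MDSC (edgeR adjusted p = 0.194 and 0.183).

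Among the chromosome 11 effectors, Gm12250 and Ifi47 were raised in splenic cells of both kinds and in tumor PMN-MDSC. Gm12250, the mouse Irgb10 that helps to break bacterial vacuoles and membranes, was at 10.1, 45.3, 14.6 and 11.2 CPM in untreated and at 64.7, 112 and 96.5 CPM in treated splenic PMN-MDSC, without overlap. Its log2 fold change was 2.46 ± 0.56 there (edgeR adjusted p = 0.027) and 1.22 ± 0.30 in splenic M-MDSC, where 36.4, 75.7, 39.7 and 40.2 CPM stood against 78.9, 149, 119 and 78.3 CPM (edgeR adjusted p = 0.0195). The untreated library at 75.7 CPM came close to the lowest treated ones. In tumor PMN-MDSC it rose from 15.2, 26.5, 12.4 and 22.3 to 53.9, 47.1, 53.4 and 43.5 CPM (log2 fold change 1.34 ± 0.25, edgeR adjusted p = 0.0136). In tumor M-MDSC the groups overlapped (20.3 to 41.1 against 37.2 to 62.3 CPM), and the log2 fold change was 0.64 ± 0.29 (edgeR adjusted p = 0.275).

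Ifi47, an effector known as Irgd, was called in the same 3 comparisons as Gm12250. It was at 13.8, 40.8, 13.9 and 10.3 CPM in untreated and at 48.0, 135 and 135 CPM in treated splenic PMN-MDSC, without overlap (log2 fold change 2.72 ± 0.57, edgeR adjusted p = 0.0208). In splenic M-MDSC, 55.4, 105, 36.8 and 45.2 CPM stood against 136, 229, 163 and 97.3 CPM. Here the highest untreated library was above the lowest treated one, and the log2 fold change was 1.44 ± 0.37 (edgeR adjusted p = 0.0235). In tumor PMN-MDSC it rose from 26.7, 32.5, 21.2 and 18.5 to 66.0, 53.2, 60.7 and 67.6 CPM (log2 fold change 1.31 ± 0.22, edgeR adjusted p = 0.0081). In tumor M-MDSC the groups overlapped, at 16.4 to 50.5 against 41.5 to 83.4 CPM (log2 fold change 0.75 ± 0.37, edgeR adjusted p = 0.304).

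Tgtp1 belongs to the near-identical pair of Irgb6 genes, whose protein loads early onto parasite vacuoles, and had the largest log2 fold change of the 7 tested members in splenic PMN-MDSC. It was at 0.27, 3.98, 0.34 and 1.93 CPM (1 to 8 counts a library) without treatment and at 17.3, 32.7 and 68.8 CPM with it, without overlap. The log2 fold change was 5.03 ± 0.79 (edgeR adjusted p = 0.00727). In splenic M-MDSC it rose from 3.16, 19, 7.86 and 6.67 to 28, 74.2, 69.2 and 56.6 CPM (2.72 ± 0.48, edgeR adjusted p = 0.00431). In tumor M-MDSC it rose from 6.60, 14.2, 5.55 and 2.52 to 35.0, 27.5 and 43.8 CPM (2.17 ± 0.42, edgeR adjusted p = 0.0308). In all of these the treated libraries were above the untreated ones. This held in tumor PMN-MDSC too, where 24.3, 33.6, 19.2 and 17.1 CPM stood against 37.0, 43.7, 76.2 and 93.5 CPM, but the log2 fold change of 1.42 ± 0.37 missed the threshold (edgeR adjusted p = 0.07).

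Tgtp2 passed the main edgeR test in splenic M-MDSC. DESeq2 also called it in splenic PMN-MDSC and tumor M-MDSC (adjusted p = 0.0332 and 0.00248), and edgeR without the filter on low counts called it in all 4 comparisons. In splenic M-MDSC it went from 14.2, 19.5, 9.10 and 15.5 to 69.0, 113, 116 and 47.8 CPM (log2 fold change 2.65 ± 0.33, edgeR adjusted p = 7.8e-04). Its log2 fold changes were 2.04 ± 0.71 in splenic PMN-MDSC, 1.13 ± 0.45 in tumor PMN-MDSC and 1.55 ± 0.35 in tumor M-MDSC (edgeR adjusted p = 0.101, 0.224 and 0.0516). With the counts of Tgtp1 and Tgtp2 added into 1 row, a choice made after the data were seen, the pair passed in all 4 comparisons. The log2 fold change of the sum was 3.06 in splenic PMN-MDSC, 1.32 in tumor PMN-MDSC, 2.67 in splenic M-MDSC and 1.79 in tumor M-MDSC (edgeR adjusted p = 0.0183, 0.0453, 7.8e-04 and 0.0296).

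The share of Tgtp1 in the counts of the pair varied by group, which was not tested. Its median was 18.3% in untreated splenic PMN-MDSC (1.59 to 40.0%) and 64.3% in treated ones (40.7 to 72.9%). It was 66.0% in untreated and 62.2% in treated tumor PMN-MDSC. In M-MDSC the medians lay between 35.6 and 41.2% in all 4 groups, and in bulk tumor the median was 73.9%. Because the genes share most of their sequence, the shares describe counts and not the transcripts of each gene.

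**Figure D2:**
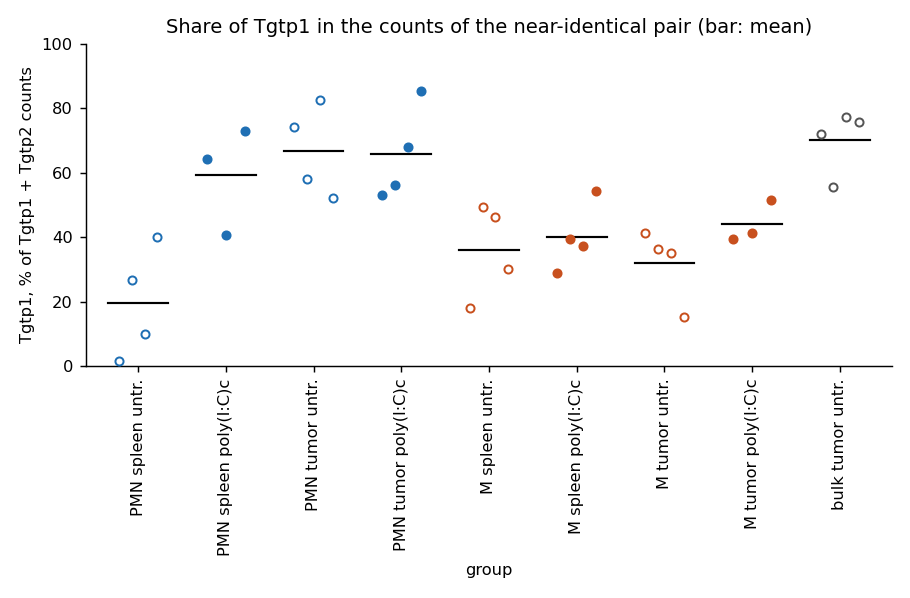
Counts of Tgtp1 as a percentage of the counts of Tgtp1 and Tgtp2 together (vertical axis) in each library, by group (horizontal axis), with open points for untreated, filled points for poly(I:C)c and a bar at the mean. The tumor PMN-MDSC and bulk tumor libraries all lie above 50%, and most M-MDSC libraries below it.

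Iigp1 and Gm4951 departed from the other members: poly(I:C)c raised them strongly in M-MDSC of both organs, and in splenic PMN-MDSC they were low in both treatment groups, Gm4951 at or near the detection limit and Iigp1 at 0.68 to 6.90 CPM. Iigp1, a well-studied effector that loads onto parasite vacuoles, was at 2.64, 9.75, 1.24 and 1.90 CPM in untreated and at 94.3, 84.4, 189 and 87.6 CPM in treated splenic M-MDSC. The log2 fold change was 5.03 ± 0.56 (edgeR adjusted p = 4.9e-04), and the ratio of pooled CPM was 33.1 (95% exact counting interval 23.9 to 47.3). In splenic PMN-MDSC it was at 6.90, 1.99, 0.68 and 2.57 CPM untreated and at 2.56, 1.49 and 2.88 CPM treated, a pooled ratio of 0.674 (0.352 to 1.23). These rested on 2 to 26 counts a library, too few for the test, and intervals of this kind cover counting error only. The highest treated splenic PMN-MDSC library, at 2.88 CPM, was thus far below the lowest treated splenic M-MDSC library, at 84.4 CPM.

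In tumor, Iigp1 was already present without treatment. It was at 10.5, 27.6, 22.7 and 11.3 CPM in untreated M-MDSC and at 106, 162 and 144 CPM in treated ones, without overlap (log2 fold change 2.81 ± 0.32, edgeR adjusted p = 0.00515). In tumor PMN-MDSC, 51.0, 79.1, 35.2 and 49.3 CPM stood against 101, 87.7, 47.9 and 37.0 CPM with overlap, and the log2 fold change was 0.29 ± 0.32 (edgeR adjusted p = 0.68). In those treated libraries, in the same order, the 5 macrophage markers summed to 5228, 5245, 3111 and 2363 CPM. Their part in the level of Iigp1 was not tested.

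Gm4951 rose in M-MDSC of both organs, as Iigp1 did. In untreated splenic M-MDSC it had 0, 0, 1 and 1 counts, and in treated ones 47.7, 28.2, 80.0 and 40.2 CPM (121, 97, 237 and 91 counts). The ratio of pooled CPM was 260, with a counting interval of 71.7 to 2154, and the fitted log2 fold change of 7.80 ± 0.57, which with so few untreated counts depends on the prior count, passed the test (edgeR adjusted p = 4.1e-05). In splenic PMN-MDSC it was between 0 and 1.92 CPM in all 7 libraries. In tumor M-MDSC it rose from 1.65, 4.72, 8.88 and 8.83 to 31.2, 69.5 and 54.5 CPM (log2 fold change 3.02 ± 0.47, edgeR adjusted p = 0.0167). In tumor PMN-MDSC 14.6, 22.2, 18.4 and 15.2 CPM stood against 46.8, 32.8, 23.3 and 27.6 CPM. These groups did not overlap, and the log2 fold change was 0.85 ± 0.24 (edgeR adjusted p = 0.0937, DESeq2 adjusted p = 0.0351).

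Counted over the family, poly(I:C)c raised 4 of the 7 tested members in splenic PMN-MDSC, 9 of 9 in splenic M-MDSC, 3 of 9 in tumor PMN-MDSC and 4 of 9 in tumor M-MDSC, and no tested member fell by this test. Without the filter on low counts Ifi47 and Gm12250 were not called in splenic M-MDSC (edgeR adjusted p = 0.139 and 0.0918), which left 7. The untreated libraries alone were below the minimum mean of 25 counts for Iigp1, Gm4951 and Tgtp1 in splenic M-MDSC, Gm4951 and Tgtp1 in tumor M-MDSC and Tgtp1 in splenic PMN-MDSC. These passed the filter through the treated group, and their part of the counts is a description. With the 4 groups of a cell type in 1 fit, 0 members were called in tumor PMN-MDSC (edgeR adjusted p = 0.1 for Irgm1, 0.148 for Gm12250 and 0.147 for Ifi47) and 6, 9 and 6 in splenic PMN-MDSC, splenic M-MDSC and tumor M-MDSC. Among all genes tested, 11.6% were called in splenic PMN-MDSC (6.1% as higher), 19.6% in splenic M-MDSC (10.7% higher), 3.36% in tumor PMN-MDSC (2.29% higher) and 2.88% in tumor M-MDSC (1.82% higher). With DESeq2 the members called were 6, 9, 6 and 6 in that order, against 18.6, 23.1, 7.38 and 9.53% of all genes. With an adjusted p under 0.001 and a change of 2-fold or more required, 3 members remained in splenic M-MDSC, Iigp1, Gm4951 and Tgtp2, and 0 in the other comparisons, where the unadjusted edgeR p was under 0.05 for 7, 8 and 7 members of splenic PMN-MDSC, tumor PMN-MDSC and tumor M-MDSC. The share of all genes past that limit was 2.47% in splenic M-MDSC and 0.0413, 0.241 and 0.012% in those 3. For the unfiltered fit, the 4-group fit and the unadjusted p the share of all genes is not given here. Those counts therefore do not show whether a gain or loss was particular to the members. The median log2 fold change of the 7 chromosome 11 members was 2.46, 1.44, 1.26 and 1.13 in splenic PMN-MDSC, splenic M-MDSC, tumor PMN-MDSC and tumor M-MDSC, beside medians of all genes between -0.01 and 0.01. The medians of Iigp1 and Gm4951 were 6.41 in splenic and 2.92 in tumor M-MDSC and 0.57 in tumor PMN-MDSC.

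**Figure D3:**
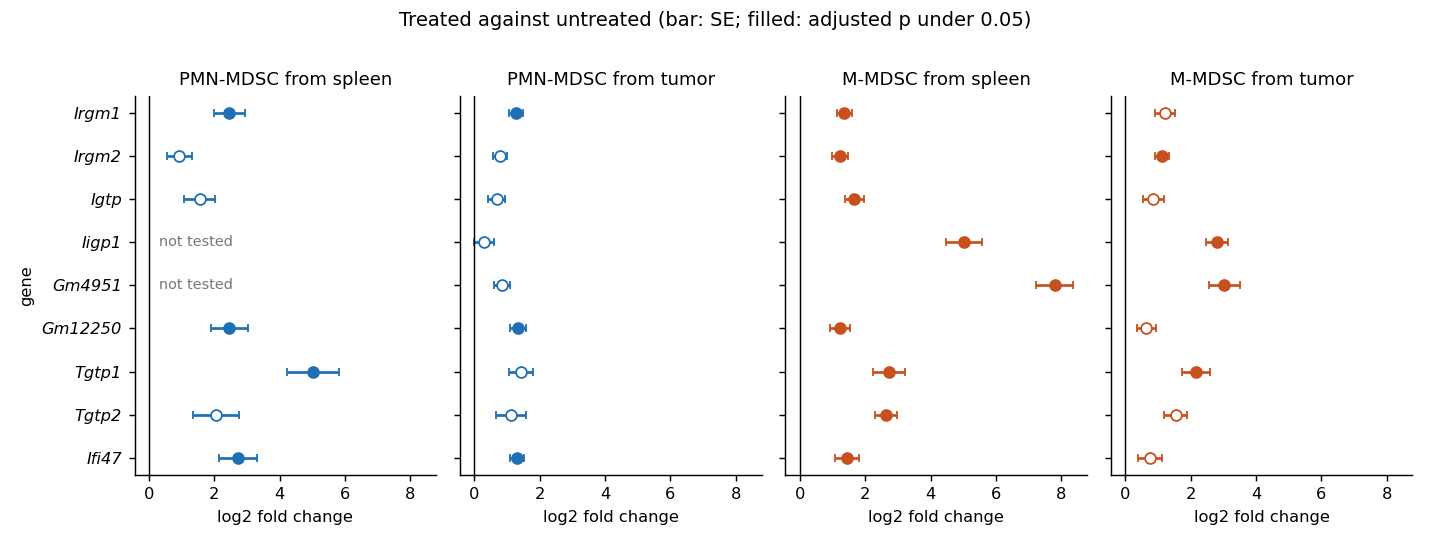
Log2 fold change of poly(I:C)c over untreated (horizontal axis, points with bars of 1 SE) for each member in the 4 comparisons, with filled points for an edgeR adjusted p under 0.05. The estimates of the tested members lie above 0 in every comparison, the largest being those of Iigp1 and Gm4951 in splenic M-MDSC and of Tgtp1 in splenic PMN-MDSC.

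Other cell-type markers moved with treatment in the same libraries. In splenic PMN-MDSC the macrophage markers summed to 229 to 717 CPM untreated and to 32 to 74.9 CPM treated, and the neutrophil markers to 12359 to 20911 and 22355 to 29177 CPM. The monocyte markers there summed to 662 to 2037 CPM untreated and to 763 to 1176 CPM treated. Of 4 monocyte markers tested there 3 were called, 1 higher and 2 lower. In splenic M-MDSC the monocyte markers went from 5864 to 8665 CPM to 2872 to 4056 CPM, and the 3 endothelial markers from 24.8 to 34.8 CPM to 129 to 293 CPM. Of the 5 monocyte markers there 3 were called, 1 higher and 2 lower, and of the 5 macrophage markers 3 were called, 2 higher and 1 lower, while the macrophage sum was 231 to 309 CPM untreated and 200 to 363 CPM treated. The 4 erythroid markers went from 46.8 to 144 CPM to 0 to 3.84 CPM in splenic PMN-MDSC and from 21.4 to 60.2 CPM to 0.675 to 2.91 CPM in splenic M-MDSC. A single treated splenic M-MDSC library held 45.6 CPM of the 7 T and NK cell markers and 114 CPM of the 4 B cell markers, and without it all 9 members were still called. In tumor PMN-MDSC the monocyte markers went from 4145 to 8404 CPM to 1193 to 2660 CPM, and in tumor M-MDSC from 8804 to 12064 CPM to 1974 to 4635 CPM. In tumor PMN-MDSC the neutrophil markers summed to 994 to 3179 CPM untreated and to 2851 to 9016 CPM treated, and the epithelial ones to 89.5 to 617 and 61.2 to 170 CPM. In tumor M-MDSC the macrophage markers summed to 1507 to 2196 and 1758 to 8055 CPM, and the endothelial ones to 20.2 to 42.5 and 74.6 to 157 CPM. The part of these shifts in the changes of the IRG genes was not tested.

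The calls in splenic PMN-MDSC rested in part on single libraries. Tgtp1 passed in the 6 fits in which it could be tested (edgeR adjusted p at most 0.0309). The missing fit was the one without treated replicate 3, which held 191 of its 306 treated counts (16 untreated), and without which it fell below the minimum mean count. Irgm1 was lost without untreated replicate 4 or treated replicate 3, and Gm12250 and Ifi47 were each lost without any of 5 libraries. Without treated replicate 3, 0 of 6 tested members were called. The share of all genes called in that fit is not given here, so the loss is not shown to be particular to the members. In tumor PMN-MDSC leaving out 1 library lost only Gm12250, without untreated replicate 1 (edgeR adjusted p = 0.0546). In splenic M-MDSC 7 members never lost the call, and Gm12250 and Ifi47 lost it without untreated replicate 1, 3 or 4 or treated replicate 2. In tumor M-MDSC Iigp1 always passed (edgeR adjusted p at most 0.0304), whereas Irgm2, Gm4951 and Tgtp1 were lost without 5, 4 and 4 of the 7 libraries.

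Differences between the treatment effects were tested as interactions, each of which shares its groups with the comparisons above. In the spleen the effect in PMN-MDSC minus that in M-MDSC, as log2 fold changes, was -5.10 ± 0.97 for Iigp1 (edgeR adjusted p = 0.00664) and -7.40 ± 1.21 for Gm4951 (edgeR adjusted p = 0.00308). These were 2 of 9 members, beside 10.9% of all genes. Both entered this fit only through their counts in treated M-MDSC, so that their calls are given as a description. In splenic PMN-MDSC, Iigp1 rested on 40 counts in all untreated and 16 in all treated libraries and Gm4951 on 9 and 5, and the fitted sizes depend on the prior count. The pooled ratios of treated to untreated were 0.674 (0.352 to 1.23) in PMN-MDSC and 33.1 (23.9 to 47.3) in M-MDSC for Iigp1, and 0.936 (0.246 to 3.11) and 260 (71.7 to 2154) for Gm4951. In the tumor, 0 of 9 members (0.0239% of all genes) passed this test with edgeR, 2 had an unadjusted p under 0.05, and DESeq2 called those 2. They were again Iigp1 (log2 difference -2.51, edgeR adjusted p = 0.167, DESeq2 adjusted p = 0.00163) and Gm4951 (-2.17, edgeR adjusted p = 0.394, DESeq2 adjusted p = 0.0332). The other 7 members gave differences of -0.48 to 2.45 in spleen (Tgtp2 and Tgtp1) and of -0.76 to 0.69 in tumor (Tgtp1 and Gm12250) without a call, which does not show that they responded alike.

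Between organs, 1 of 9 members was called in each cell type, beside 3.5% of all genes in PMN-MDSC and 0.79% in M-MDSC. In PMN-MDSC the log2 effect on Tgtp1 in tumor minus that in spleen was -3.62 ± 0.85 (edgeR adjusted p = 0.0289), a call lost without any of 5 of the 15 libraries. It was also lost when the counts of Tgtp1 and Tgtp2 were summed, where the difference was -1.74 ± 0.69 (edgeR adjusted p = 0.2). In M-MDSC the same difference for Gm4951 was -4.73 ± 0.94 (edgeR adjusted p = 0.0368), a call lost without any of 9 of the 15 libraries. Gm4951 reached the minimum mean count here only through the treated groups (2 and 49 counts in untreated spleen and tumor, 546 and 525 in treated), so this value too is given as a description. For Gm4951 the treated means were 49.1 ± 22.1 CPM in spleen and 51.8 ± 19.3 CPM in tumor, and the untreated means 0.163 ± 0.201 and 6.02 ± 3.50 CPM. For Tgtp1 in PMN-MDSC the treated means were 39.6 ± 26.4 and 62.6 ± 26.8 CPM, and the untreated means 1.63 ± 1.75 and 23.5 ± 7.36 CPM. In both cases the untreated level was the lower one in spleen, without overlap with tumor. The difference for Iigp1 in M-MDSC was -2.19 ± 0.69 (edgeR adjusted p = 0.152). DESeq2 called it (-2.17, DESeq2 adjusted p = 0.0492), as did the unfiltered fit (-2.22, edgeR adjusted p = 1.1e-06). Iigp1 too had few counts in untreated splenic M-MDSC (37 in all, against 1287 in treated ones). The remaining differences ran from -1.39 for Ifi47 to 0.59 for Gm4951 in PMN-MDSC and from -1.06 for Tgtp2 to -0.06 for Irgm2 in M-MDSC.

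**Figure D4:**
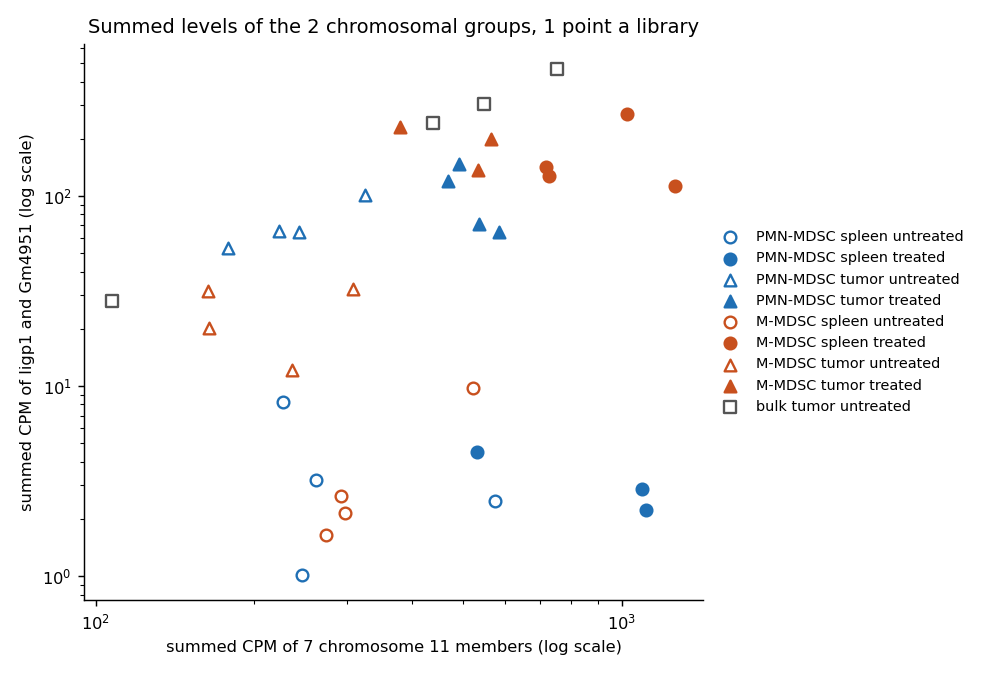
Summed CPM of the 7 chromosome 11 members (horizontal axis, log scale) against summed CPM of Iigp1 and Gm4951 (vertical axis, log scale), 1 point a library; circles are spleen, triangles tumor and squares bulk tumor, colours and fills as in the plot of levels. Splenic PMN-MDSC keep low values on the vertical axis while they move to the right with treatment, whereas splenic M-MDSC move on both axes.

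Summed over the 9 members, IRG transcripts amounted to 331 ± 164 CPM in untreated splenic PMN-MDSC (SD, n = 4) and 915 ± 329 CPM in treated ones (n = 3). In splenic M-MDSC the sums were 350 ± 121 and 1096 ± 277 CPM, in tumor PMN-MDSC 314 ± 81.5 and 621 ± 28.3 CPM, and in tumor M-MDSC 242 ± 71.4 and 681 ± 77.6 CPM. Iigp1 and Gm4951 made up a mean of 0.434% of this sum of counts in treated splenic PMN-MDSC, 15.1% in treated splenic M-MDSC, 28.2% in treated tumor M-MDSC and 32.5% in bulk tumor. In tumor PMN-MDSC they made up 22.6% untreated and 16.3% treated, in untreated tumor M-MDSC 10.4%, and in untreated spleen 1.39% in PMN-MDSC and 1.01% in M-MDSC.

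Without treatment, Iigp1 and Tgtp1 were higher and Irgm2 was lower in tumor than in spleen for PMN-MDSC, and Irgm2 was lower in tumor for M-MDSC as well. In PMN-MDSC 3 of 8 tested members passed, beside 59.1% of all genes: the log2 difference of tumor from spleen was 3.94 ± 0.48 for Iigp1, 3.87 ± 0.61 for Tgtp1 and -1.80 ± 0.32 for Irgm2 (edgeR adjusted p = 7.9e-05, 3.7e-04 and 8.7e-04). Iigp1 and Tgtp1 reached the minimum mean of 25 counts only through tumor (40 counts in spleen against 422 in tumor for Iigp1, 16 against 186 for Tgtp1), so their calls are given as a description. Leaving out 1 library lost none of these calls, but Tgtp1 could be tested in only 4 of the 8 fits. The sum of Tgtp1 and Tgtp2, at means of 9.96 CPM in spleen and 36.7 CPM in tumor, gave a smaller log2 difference of 1.75 ± 0.50 (edgeR adjusted p = 0.0112). The untreated tumor libraries held more macrophage, monocyte and epithelial transcripts than the splenic ones, as given above. Relative to the mean of bulk tumor, Iigp1 in untreated tumor PMN-MDSC stood at 25.7% ± 8.83, Gm4951 at 34.4% ± 6.88 and Tgtp1 at 16.1% ± 5.04 (SD, n = 4). The epithelial markers stood at 5.48% ± 4.23 (Krt8), 5.96% ± 4.62 (Krt18), 9.21% ± 7.95 (Krt19) and 33.8% ± 23 (Epcam, which was near detection in bulk tumor, at a mean of 1.2 CPM). Their part in these levels was not tested. In M-MDSC 1 of 6 tested members passed, beside 28.4% of all genes: Irgm2, with a log2 difference of -0.97 ± 0.24 (edgeR adjusted p = 0.0104). Iigp1 and Gm4951 were too low in spleen for this test, and Iigp1 values of 10.5 to 27.6 CPM in tumor and 1.24 to 9.75 CPM in spleen did not overlap.

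Untreated PMN-MDSC and M-MDSC differed in Irgm2 in both organs. Untreated replicate 2 had the highest IRG sum in all 4 sorted groups (576, 531, 426 and 340 CPM in splenic PMN-MDSC, splenic M-MDSC, tumor PMN-MDSC and tumor M-MDSC). Whether libraries of different groups came from 1 mouse was not modelled in any comparison between organs or cell types. In spleen the log2 difference of PMN-MDSC from M-MDSC was 1.57 ± 0.33 for Irgm2 (edgeR adjusted p = 0.0022) and -1.28 ± 0.49 for Ifi47 (edgeR adjusted p = 0.0438), which made 2 of 6 tested members beside 64.4% of all genes. The call for Ifi47 was lost without any of 6 of the 8 libraries and without the filter on low counts (edgeR adjusted p = 0.202). The unfiltered fit called Igtp at 0.87 and Tgtp1 at -2.25 (edgeR adjusted p = 0.0479 and 4.5e-05), whereas the sum of Tgtp1 and Tgtp2 was at -0.89 ± 0.50 without a call (edgeR adjusted p = 0.137). In tumor 3 of 8 passed, beside 13.0% of all genes: Iigp1, Tgtp1 and Irgm2 were higher in PMN-MDSC by 1.58 ± 0.33, 1.72 ± 0.40 and 0.82 ± 0.21 (edgeR adjusted p = 0.008, 0.0134 and 0.0234). Of these, Iigp1 never lost the call, Irgm2 lost it without any of 4 libraries and Tgtp1 without any of 2. The sum of Tgtp1 and Tgtp2 was not called there (0.81 ± 0.37, edgeR adjusted p = 0.175). Tgtp1 reached the minimum mean count there only through PMN-MDSC. Untreated tumor PMN-MDSC held more macrophage transcripts than untreated tumor M-MDSC (2820 to 3656 against 1507 to 2196 CPM). Their epithelial transcripts overlapped (89.5 to 617 against 13.7 to 234 CPM), and their monocyte transcripts were lower (4145 to 8404 against 8804 to 12064 CPM). The part of these cells in the differences was not tested. Of the 6 members tested in both organs, Irgm2 was called higher in PMN-MDSC in both, and Iigp1, Gm4951 and Tgtp1 were too low in spleen for the test.

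Bulk tumor was measured without treatment only and was not tested against sorted cells. Iigp1 had its highest mean there, with 21.5, 265, 183 and 363 CPM, as had Tgtp1, with 25.5, 155, 157 and 246 CPM. Ifi47 had its lowest mean there, with 6.87, 14.9, 16.7 and 29.5 CPM, and Gm12250 was at 3.30, 15.4, 11.7 and 31 CPM. The same library was lowest for every member, and the sum over the 9 members ran from 135 to 1218 CPM across the 4 tumors. Neutrophil markers were nearly absent from bulk tumor (Ly6g and Retnlg at 0).

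Across groups the order of levels differed by member. Irgm2 followed the order treated splenic PMN-MDSC (265 ± 78.8 CPM), untreated splenic PMN-MDSC (168 ± 71.1) and treated splenic M-MDSC (164 ± 40.7), whose ranges overlapped, and its lowest group was untreated tumor M-MDSC (32.6 ± 6.34 CPM), set apart from its neighbour. Iigp1 ran from bulk tumor (208 ± 145 CPM) down to treated splenic PMN-MDSC (2.31 ± 0.731 CPM), with gaps without overlap below untreated tumor PMN-MDSC (53.6 ± 18.4 CPM) and below untreated tumor M-MDSC (18.0 ± 8.50 CPM). Tgtp1 and Ifi47 showed an unbroken order in which each group overlapped the next.

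A list of 7 further genes of the family, Gm4841, F830016B08Rik, Gm5431, 9930111J21Rik1, 9930111J21Rik2, Irgc1 and Irgq, gave 1 edgeR call in each treatment comparison, always Gm5431. Among all genes the shares called were 11.6, 3.36, 19.6 and 2.88% in splenic PMN-MDSC, tumor PMN-MDSC, splenic M-MDSC and tumor M-MDSC. Its log2 fold change was 2.78 in splenic PMN-MDSC, 1.53 in tumor PMN-MDSC, 0.89 in splenic M-MDSC and 1.54 in tumor M-MDSC (edgeR adjusted p = 0.0499, 0.0283, 0.036 and 0.0288; 3, 5, 4 and 5 genes of the list tested, Gm4841 and Irgc1 in none). The other genes next in p were 9930111J21Rik1 and 9930111J21Rik2 in PMN-MDSC, with log2 fold changes of 1.17 and 1.35 in spleen and 0.60 and 0.70 in tumor, and Irgq in splenic M-MDSC, at -0.53, all without a call. F830016B08Rik had 0 counts in all 4 untreated splenic M-MDSC libraries and 11.8, 2.62, 17.9 and 15 CPM in the treated ones, too few for the test, and at most 2.39 CPM in splenic PMN-MDSC. Like Iigp1, it was low in splenic PMN-MDSC of both treatment groups. In tumor M-MDSC its log2 fold change was 2.27 (edgeR adjusted p = 0.0685). DESeq2 called 3 of the 5 tested genes of the list in tumor M-MDSC, all higher, beside 9.53% of all genes. It called 1 in each of the other treatment comparisons.

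Genes that carry the interferon signal, a list of 12 receptors, kinases and transcription factors, gave 2, 2, 4 and 0 calls in splenic PMN-MDSC, tumor PMN-MDSC, splenic M-MDSC and tumor M-MDSC, beside 11.6, 3.36, 19.6 and 2.88% of all genes. Stat2, a subunit of the factor that binds the response element, rose by log2 fold changes of 2.67 in splenic PMN-MDSC, 1.42 in tumor PMN-MDSC and 1.47 in splenic M-MDSC (edgeR adjusted p = 0.00651, 0.00724 and 0.00219). Of the 12 genes, 2 passed in splenic PMN-MDSC, the other being Irf8, a factor of the monocyte lineage, which fell by 2.48 (edgeR adjusted p = 0.0296), and Irf9 was at 0.87 without a call. Irf9, the DNA-binding subunit beside Stat2, was the other of 2 in tumor PMN-MDSC, with a rise of 1.08 (edgeR adjusted p = 0.0163), and the receptor chain Ifngr2 was at 0.37 without a call. In splenic M-MDSC 4 passed, among them Stat2, the kinase Jak2, which rose by 0.51, and the interferon gamma receptor chain Ifngr1, which fell by 1.15 (edgeR adjusted p = 0.0152 and 0.00337 for Jak2 and Ifngr1). In tumor M-MDSC 0 passed with edgeR, 4 had an unadjusted p under 0.05, and DESeq2 called 2; the smallest p values belonged to Ifngr1 (-0.90), Jak2 (-0.86) and Stat2 (0.76).

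A list of 13 genes for loading proteins onto vacuoles, among them the autophagy conjugation genes, gave 2, 1, 2 and 0 calls in the same order, beside the same shares of all genes (11.6, 3.36, 19.6 and 2.88%). The antibody receptor and ubiquitin ligase Trim21 rose by 2.03 in splenic PMN-MDSC and by 1.06 in tumor PMN-MDSC (edgeR adjusted p = 0.00303 and 0.0471), and Atg12, a conjugation protein, by 0.79 in the former (edgeR adjusted p = 0.0355). In splenic M-MDSC the autophagy receptor Sqstm1 rose by 0.77 and Gabarap by 0.40 (edgeR adjusted p = 0.00281 and 0.0473). This made 2 of 11, 1 of 12 and 2 of 12 tested genes, Map1lc3a being too low for the test in each and Gabarapl1 in splenic PMN-MDSC. Without a call, Sqstm1 was at 0.69 in splenic PMN-MDSC, Atg12 at 0.78 and Gabarap at 0.49 in tumor PMN-MDSC, and Trim21 at 0.74 in splenic M-MDSC. In tumor M-MDSC 0 of 12 passed with edgeR, with 3 at an unadjusted p under 0.05 (Sqstm1 0.74, Trim21 0.82 and Atg5 0.47), and DESeq2 called 0.

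Over the 30 MDSC libraries, which share the treatment and cell-type structure described above, Pearson's r of log2 levels was 0.95 between Iigp1 and Gm4951 and 0.95 between Irgm1 and Ifi47, whereas it was -0.22 between Irgm2 and Iigp1. Tgtp1 and Tgtp2, which share reads, had r = 0.69 with each other, 0.65 and 0.63 with Iigp1, and 0.23 and 0.30 with Irgm2. Of 8527 genes, those most like the mean of the 7 chromosome 11 members were Tap1 (r = 0.93), which moves peptides to class I molecules, Zbp1 (0.917), a sensor of nucleic acids, Trafd1 (0.914), Parp9 (0.91) and H2-T10 (0.909). For single members the closest gene was Stat2 for Ifi47 (0.941), Trafd1 for Irgm1 (0.941), Zbp1 for Gm12250 (0.936), Oas1b for Irgm2 (0.928), Gbp6 for Tgtp1 (0.906) and Ifi44 for Tgtp2 (0.876). These values describe the libraries and carry no test.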

How the data were processed

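The authors aligned reads of stranded, rRNA-depleted libraries with ContextMap and BWA to GRCm38 and counted them per gene and strand with featureCounts (Subread 1.4.6-p3). The deposited values are raw read counts per Ensembl gene ID, and no molecular identifiers are described, so amplified copies count as reads. Symbols and exon lengths came from GENCODE M21 for 53274 of 53379 IDs. The 9 members and all lists were chosen with earlier results of these data known; all members were named, and from each list the 3 genes with the smallest p and those not tested. Counts were tested with edgeR 4.0.16 (quasi-likelihood test, TMM scaling, Benjamini-Hochberg adjustment over all genes that averaged 25 counts or more in the compared libraries, two-sided, adjusted p under 0.05) in R 4.3.3. Treatment effects were fitted on their own libraries and interactions over 4 groups. DESeq2 1.42.0, other scalings, no filter, a stricter limit, a joint fit and leaving out each library served as alternatives. CPM used library totals. The SE was the log2 fold change divided by the square root of F. The scripts were tested on simulated counts. Sample titles share numbers across organs and cell types, but the columns of the count table carry running numbers, which were not translated into title numbers, so libraries were not paired and p-values measure the spread between libraries. Replicate numbers in the text follow the column order within a group and only name libraries. Summing Tgtp1 and Tgtp2 was an alternative chosen after seeing the data. A column with 10 counts was left out. Protein sequences were not used here. Some genes and alleles are not reported here.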

Additional observations from a re-analysis of the deposited data

Results flagged for a closer look

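In groups of 4 libraries, a single library stood apart from the other 3 in 10 of 63 sets of values, where chance gives about 1 in 20 for a single set. The sets share libraries and the members vary together, so this rate does not apply to their number. Among untreated splenic PMN-MDSC, replicate 2 was high for Irgm1 (98.6 CPM, the others 34.5 to 44.4), Igtp (101 CPM, the others 34 to 45), Gm12250 (45.3 CPM, the others 10.1 to 14.6) and Ifi47 (40.8 CPM, the others 10.3 to 13.9). Without it, 6 of 7 tested members were called in splenic PMN-MDSC, and the share of all genes called in that fit is not given here. Among untreated splenic M-MDSC, replicate 2 was high for Irgm2 (108 CPM, the others 58.5 to 65.8), Iigp1 (9.75 CPM, the others 1.24 to 2.64) and Gm12250 (75.7 CPM, the others 36.4 to 40.2). Replicate 3 of treated splenic M-MDSC was high for Iigp1 (189 CPM, the others 84.4 to 94.3). In treated tumor PMN-MDSC replicate 4 was high for Irgm2 (118 CPM, the others 86.2 to 87.9) and low for Tgtp2 (15.9 CPM, the others 32.6 to 35.6).

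A difference between 2 treatment effects had an edgeR adjusted p under 0.05 for 4 values. The 3 of them that concern Iigp1 and Gm4951 are descriptions, since these genes reached the minimum mean count only through treated libraries in which they were high. The effect on Tgtp1 in PMN-MDSC differed between tumor and spleen by -3.62 on the log2 scale, and that on Gm4951 in M-MDSC by -4.73. Between PMN-MDSC and M-MDSC of the spleen, the effect differed by -5.10 for Iigp1 and by -7.40 for Gm4951. With Tgtp1 and Tgtp2 summed, the difference of the pair was -1.74 and was not called (edgeR adjusted p = 0.2). Iigp1 and Gm4951 had few counts in splenic PMN-MDSC (40 and 9 in all untreated libraries, 16 and 5 in all treated ones), and Gm4951 had 2 in untreated splenic M-MDSC, so these sizes depend on the prior count.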

How the results depend on the processing

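No paired analysis was possible without matching columns to titles by their order, because the columns of the count table carry running numbers. These are not the numbers of the sample titles. The columns list the groups in the same order as the titles, but they were not matched in this way. Which calls between organs and cell types would change with pairing is therefore not known. If the running numbers follow the mice, comparisons between organs and cell types treat libraries of 1 mouse as independent. No called value reversed its direction. Values near 0 without a call did change sign when 1 library was left out, and upper-quartile scaling changed no call of a member, although it moved the median log2 fold change of all genes in splenic PMN-MDSC to -0.16 and the genes called higher and lower from 443 and 401 to 336 and 607. At an adjusted p under 0.001 and 2-fold, 3 members were called for poly(I:C)c in splenic M-MDSC and 0 in the other treatment comparisons, in the interactions and in the untreated comparisons other than that of tumor against spleen in PMN-MDSC. Without a filter on low counts, 7, 8 and 7 members were called in splenic PMN-MDSC, tumor PMN-MDSC and tumor M-MDSC, 3 and 2 between organs in PMN-MDSC and M-MDSC, 6 and 2 between cell types in spleen and tumor, and 3 between untreated tumor and spleen M-MDSC. In splenic M-MDSC 7 were called there, with Ifi47 and Gm12250 lost. More genes are tested there, and the cause was not tested further. DESeq2 called 6 in tumor PMN-MDSC, 2 between organs in M-MDSC and 2 between cell types in tumor. With 4 groups in 1 fit 0 were called in tumor PMN-MDSC (edgeR adjusted p = 0.1 for Irgm1), and with RLE scaling 1 between untreated cell types in spleen. Summing Tgtp1 and Tgtp2, chosen after seeing the data, gave 0 between organs in PMN-MDSC; the cause was not tested. Leaving out 1 library gave 0 to 6 calls in splenic PMN-MDSC, 2 to 4 in tumor PMN-MDSC, 7 to 9 in splenic M-MDSC and 1 to 6 in tumor M-MDSC. It gave 0 to 4 and 0 to 1 between organs, 1 to 5 and 0 to 1 between cell types in spleen and tumor, 2 to 4 and 1 to 2 for untreated tumor against spleen, and 1 to 4 and 1 to 4 for untreated cell types. Shares of all genes called are not given for the unfiltered, 4-group and leave-one-out fits. Their counts thus do not show whether a gain or loss was particular to the members. Splenic PMN-MDSC had 3 treated libraries and few counts of Iigp1 and Gm4951. For these genes an unfiltered fit gave log2 fold changes of -0.11 and 0.39 there (edgeR adjusted p = 0.931 and 0.851).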

Other observations

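F830016B08Rik and Gm4841, relatives of Iigp1 that were low in sorted cells, were measurable in bulk tumor. F830016B08Rik stood at 7.27, 114, 68.0 and 132 CPM and Gm4841 at 2.11, 39.8, 21.6 and 42 CPM in the 4 tumors, and for both the tumor with the lowest Iigp1 was the lowest and the one with the highest Iigp1 the highest. In the same order, 9930111J21Rik1 was at 29.3, 103, 49.0 and 43.7 CPM and 9930111J21Rik2 at 63.0, 169, 68.4 and 68.2 CPM, highest in the second tumor. These last genes were not low in sorted cells, where group means ran from 90.9 to 345 CPM and from 82.5 to 414 CPM.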
